A study of Mus musculus with 19 samples.

Results

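Among 19 primary p53/MCA sarcomas sequenced as bulk tumor RNA, 8 came from Rag2+/- mice, whose T cells can develop, and these 8 were divided by how much T cell RNA they held. For each tumor the log2 values of Cd3d, Cd3e, Cd3g and Cd8a were averaged, and the 4 tumors with the highest mean (T cell-rich) were compared with the 4 with the lowest (T cell-poor) across all genes. The groups were therefore selected on measured values of the same libraries, and the 4 genes are given below as a description without a test. The other 11 tumors grew in Rag2-/- littermates, which lack T and B lymphocytes, and serve as a reference level, and as a further group in an alternative fit.

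In all 19 mice an adenovirus carrying Cas9 and a guide RNA against Trp53 was injected into the gastrocnemius muscle, at a recorded 6 to 10 weeks of age. An injection of 300 µg of the carcinogen 3-methylcholanthrene (MCA) at 6 µg per µl followed. The paper's methods state this age for its other primary sarcomas and name no age for the Rag2 mice. Tumors were collected at 70 to 150 mm3, and each tumor gave 1 library. No tumor without the p53 guide and no tumor without MCA was part of the comparison, and all T cell-rich and T cell-poor tumors share the Rag2+/- genotype. The labels name no cell sort, so every library mixes tumor cells, muscle, stroma and leukocytes. A lower value in such a mixture cannot tell fewer cells of a type from less RNA per cell.

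The T cell receptor reaches the cell surface together with the CD3 chains, which pass its signal on, and CD8 binds MHC class I molecules on the cell that presents a peptide. Activated CD8 T cells release perforin and granzymes, and T cells and NK cells secrete interferon gamma. In the cells that receive it, interferon gamma induces genes for peptide loading, chemokines and guanylate-binding proteins. RNA of this response is often found beside T cells in tumors.

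Values are the authors' upper-quartile normalized FPKM on a log2 scale after 0.1 had been added, so −3.32 is the floor, at which no fragment was assigned to a gene. A difference of 1 on this scale is a doubling for genes well above the floor and understates the change of low genes. From the spacing of low values, the 8 libraries held an estimated 24.9 to 33.8 M fragments on genes, and the T cell-rich and T cell-poor libraries averaged 29.6 M fragments (SD 3.45) and 28.7 M fragments (SD 2.98, n = 4 each, two-sided exact permutation test, p = 0.657, where 4 against 4 tumors allow no p under 0.0286). The share of genes above the floor was 37.8% ± 0.753 and 34.7% ± 2.97 (SD, n = 4 each, exact permutation p = 0.143). The Y-linked gene Ddx3y was at 3.96 to 4.80 in 5 tumors, S58, S59 and S52 of the T cell-rich and S60 and S56 of the T cell-poor, and at the floor in the other 3, where Xist, the RNA of the inactive X chromosome, was at 3.0 to 3.63 against −1.83 or lower in the 5. Rag2 itself was at −2.33 to −0.57 in the 8 Rag2+/- tumors and at −2.05 to 0.36 in the 11 Rag2-/- tumors, so its whole-gene value did not separate the genotypes. S56 stood apart in several immune gene groups, and values without it are given where it changed a result.

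The mean of the 4 T cell genes was 2.64 in S58, 2.58 in S55, 2.43 in S59 and 2.08 in S52, and 1.06 in S54, 0.78 in S60, 0.66 in S56 and 0.00 in S53. S52 was just inside the T cell-rich group and S54 just outside it, with a gap of 1.02 between them. In the same order of tumors, Cd3e, a signaling chain of the receptor complex, was at 2.35, 2.90, 1.87 and 2.54 in the T cell-rich and at 1.04, 0.52, 1.19 and −0.61 in the T cell-poor tumors. Every T cell-rich tumor was above every T cell-poor tumor for each of the 4 genes, which the choice of tumors favors. Cd8a, the CD8 alpha chain, was at 2.47, 2.31, 2.31 and 1.98 and at 0.84, 0.92, −0.25 and −0.14. Cd3d and Cd3g, the delta and gamma chains, were 3.03-fold and 3.52-fold higher in the mean of the T cell-rich tumors, and Cd3e and Cd8a 3.68-fold and 3.80-fold. These values rest on an estimated 27 to 519 fragments per gene and tumor. Among the Rag2-/- tumors the mean of the 4 genes lay between −3.32 and −2.24, with a median of −2.98, and Cd3e was at the floor in all 11. The T cell-poor tumors thus held RNA of these genes above the level of mice without T cells.

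**Figure D1:**
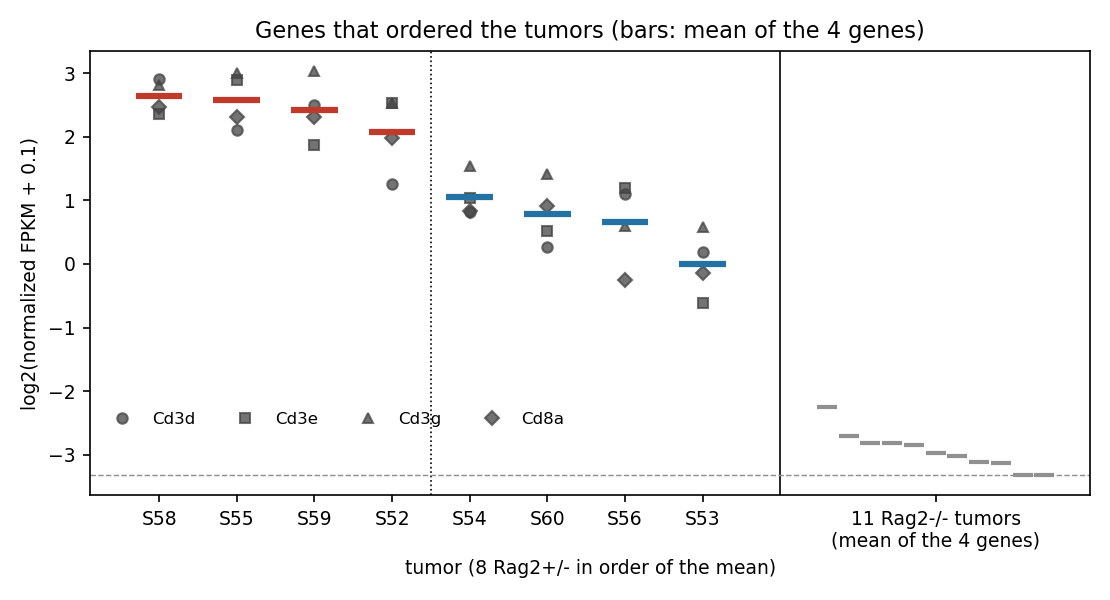
Log2 values of Cd3d, Cd3e, Cd3g and Cd8a (symbols) and their mean (bars, red for T cell-rich and blue for T cell-poor) in the 8 Rag2+/- tumors, and the mean alone in the 11 Rag2-/- tumors (gray); the dashed line is the floor at −3.32. The means run from 2.64 to 2.08 and from 1.06 to 0.00, and all Rag2-/- tumors lie at −2.24 or below.

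Other genes of T cells followed the same division, which is not independent of it, since the same cells express them. All 19 members of the T cell identity and receptor signaling list that passed the level filter had a higher mean in the T cell-rich tumors, with a median difference of 1.18 against −0.02 over the 12819 genes tested. The remaining 5 of its 24 members were below the filter, a mean above 0 over the 8 tumors. A gene can pass it through the T cell-rich tumors alone. Lat, Cd6 and Cd5 did so, with T cell-poor means of −0.05, −0.24 and −0.62. Over all 24 members, tested or not, the median difference was 1.20. Cd8b1, the CD8 beta chain, was at 2.37, 2.31, 2.43 and 1.60 and at 0.46, 0.22, 0.24 and 1.11. Cd6, a receptor on T cells, was at 2.10, 2.08, 1.18 and 1.22 and at 0.18, 0.29, −1.43 and 0.02. Lat, the adaptor that the receptor's kinases phosphorylate, was at 2.45, 2.93, 2.62 and 1.66 and at 1.0, 1.08, −3.32 and 1.05. For these 3 genes all T cell-rich tumors lay above all T cell-poor tumors, and for Lat the mean of the T cell-poor tumors was drawn down by S56. Cd5, an inhibitory receptor of T cells, also did not overlap, at 0.79 to 1.64 against −3.32 to 0.77. The 3 members with the highest levels overlapped between the groups. Lcp2, an adaptor shared with myeloid cells, was at 3.63 to 4.25 and 1.98 to 3.73, Trbc2 at 3.22 to 4.32 and 1.77 to 3.81, and Il7r, the interleukin 7 receptor, at 1.94 to 3.74 and 0.68 to 3.30.

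Cytotoxic genes had a median difference of 1.72 over 7 tested of 12 members, all of them higher in the mean. Over all 12 members it was 1.70. Prf1, with a T cell-poor mean of −0.97, passed the filter only through the T cell-rich tumors. Gzmb, granzyme B, was at 3.70, 4.77, 4.53 and 4.16 in the T cell-rich and at 2.77, 1.66, 1.54 and 1.88 in the T cell-poor tumors. Nkg7, a protein of cytotoxic granules, was at 3.75, 3.60, 3.69 and 3.54 and at 1.86, 2.40, 2.50 and 0.93. Ccl5, a chemokine of activated T and NK cells, was at 6.17, 6.04, 6.13 and 6.05 and at 4.78, 5.45, 3.29 and 4.17. The T cell-rich tumors were close together for Nkg7 and Ccl5, while the T cell-poor tumors were spread out. Prf1, perforin, was at 1.17 to 1.55 against −3.32 to 0.08, and Cxcr3, the receptor for the interferon-induced chemokines, at 1.38 to 2.23 against −0.76 to 1.21. NK cells express granule genes too, and the Rag2-/- tumors, without T cells, were at medians of 4.32 for Gzmb, 2.57 for Nkg7 and 2.29 for Prf1. For Gzmb and Prf1 these medians were at or above the T cell-rich means of 4.29 and 1.35.

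Checkpoint and activation receptors gave a median difference of 1.78 over 10 tested of 14 members, all higher in the mean. Over all 14 members, tested or not, it was 1.44, and all 14 were higher in the mean. Pdcd1, Icos, Lag3 and Tigit had T cell-poor means of −0.75, −0.37, −0.32 and −0.14. They passed the filter only through the T cell-rich tumors. Pdcd1, which encodes PD-1, was at 2.34, 2.24, 1.33 and 1.48 and at 0.17, −0.61, −0.78 and −1.76, a 6.04-fold difference of means and the widest gap between the groups of the named members of this list, at 1.16. Tnfrsf9, the costimulatory receptor 4-1BB, was at 3.50, 3.40, 2.69 and 2.88 and at 2.27, 0.85, −3.32 and 1.03. Tnfrsf4, or OX40, was at 1.83 to 3.53 against −1.92 to 1.66, and Icos at 0.93 to 2.10 against −1.69 to 0.29. The Rag2-/- tumors, without T cells, had a median of 2.32 for Tnfrsf9, above every T cell-poor tumor. Their medians for Pdcd1, Tnfrsf4 and Icos were −1.11, −0.73 and −1.37. These 4 receptors were named because their groups did not overlap, which held for 4 of the 10 tested members and for 1.86% of all genes tested. The filter favors this count, since Pdcd1 and Icos passed it only through the T cell-rich tumors. Entpd1, Cd38 and Havcr2, the 3 most abundant members, which myeloid or endothelial cells also express, overlapped and differed by 0.32, 0.59 and 0.90. Their Rag2-/- medians were 4.66, 2.70 and 2.76, against T cell-rich means of 4.85, 3.60 and 2.80. Without S56, where Tnfrsf9 was at the floor, the median difference of the list was 1.02, and it was 0.59 for members with a mean log2 above 2 and 0.99 with a pseudocount of 1. The regulatory T cell list had a median difference of 0.66 over 6 tested of 8 members. Foxp3, its defining transcription factor, was at 0.92, 2.04, 0.66 and 0.93 and at −0.56, 0.93, −0.53 and −0.68, with S60 inside the T cell-rich range. Il2ra, the alpha chain of the interleukin 2 receptor, differed by 1.17 with overlap. Tnfrsf18, the receptor GITR, was at 2.32, 3.12, 2.13 and 2.82 and at 1.60, 1.75, 0.47 and 1.81 without overlap. Lrrc32 and Ikzf2, which endothelial and other cells also express, differed by −0.02 and 0.06.

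Across the transcriptome, none of the 12819 genes tested apart from the 4 ordering genes passed an adjusted p of 0.05 (limma, 0% called). The smallest adjusted p was 0.122. At an unadjusted p under 0.05, limma gave 358 genes that were higher (2.79%) and 49 that were lower (0.382%) in the T cell-rich tumors. For 239 genes (1.86%) all 4 T cell-rich values lay above all 4 T cell-poor values, and for 61 (0.476%) all lay below. A higher mean in the T cell-rich tumors was found for 47.6% of genes, while 395 genes were over 1 higher and 96 over 1 lower on the log2 scale. The counts depended on single tumors and on covariates. Without S55 the higher genes at unadjusted p under 0.05 numbered 165, and without S58 they numbered 238. The lower ones numbered 29 without S52 and 89 without S59. With Xist as a covariate there were 586 higher and 218 lower genes, and with the mean of the muscle list 582 and 171, so the shares above describe the fit without covariates.

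**Figure D2:**
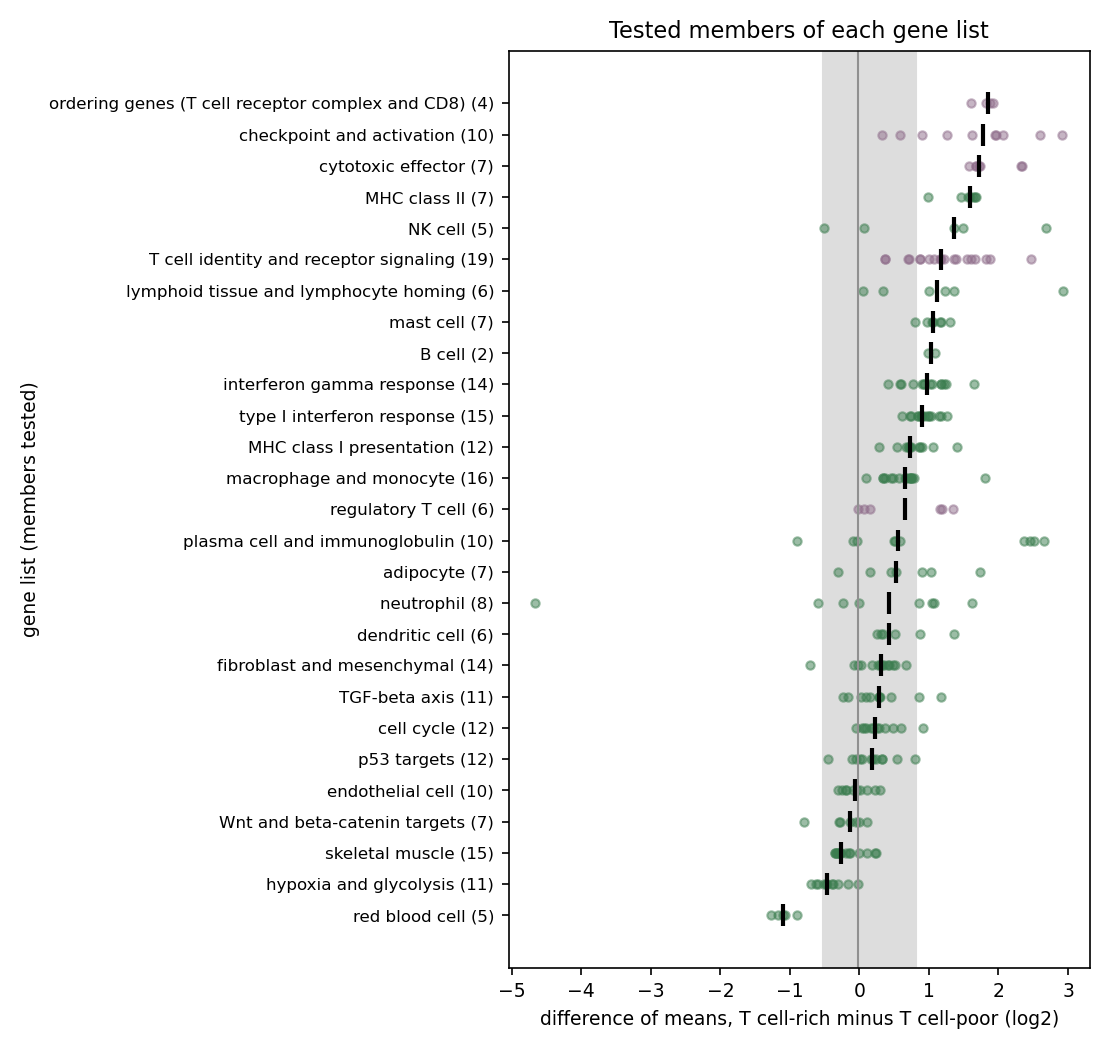
Difference of means, T cell-rich minus T cell-poor, on the log2 scale, for each tested member of 27 gene lists (points, purple for lists of T cell genes, green for the others) with the median of each list (black bars) and the number tested in parentheses. The gray band holds the middle 90% of all genes tested, from −0.52 to 0.81, and the medians run from 1.85 for the ordering genes to −1.10 for the red blood cell list.

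Genes of the interferon gamma response were higher in the T cell-rich tumors in the mean for all 14 members tested of 16, with a median difference of 0.97. Of the 14, 9 did not overlap between the groups, where 1.86% of all genes tested did so in this direction, and 10 had an unadjusted limma p under 0.05, where 2.79% did. None passed the adjusted test. Cxcl9, a chemokine that attracts CXCR3-bearing T cells, was at 5.67, 6.43, 5.07 and 6.38 in the T cell-rich and at 4.32, 4.40, 4.43 and 3.82 in the T cell-poor tumors, a difference of 1.64 ± 0.34 (SE, limma adjusted p = 0.915). Gbp3, a guanylate-binding protein, was at 5.74, 5.73, 5.17 and 5.56 and at 4.24, 4.24, 4.23 and 4.53, a difference of 1.24 ± 0.21 (SE, limma adjusted p = 0.793). The groups were separate for both genes, by 0.64 each, and S59 was the lowest T cell-rich tumor both times.

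Iigp1, an immunity-related GTPase, was at 6.17, 6.31, 6.40 and 6.16 and at 4.81, 5.82, 4.84 and 4.70, with S60 nearer to the T cell-rich tumors than to the other T cell-poor ones. Gbp2 was at 6.01, 6.70, 6.25 and 6.42 and at 5.15, 5.78, 4.97 and 4.79. Irgm1, another immunity-related GTPase, was at 6.19, 6.50, 5.98 and 6.07 and at 5.38, 5.68, 5.70 and 5.56. These 3 genes also did not overlap, nor did Irf1, Gbp4 and Gbp5. Cxcl10, a chemokine that type I interferons also induce, overlapped, at 4.91 to 7.20 against 4.86 to 5.77, since S59 had a low value. Guanylate-binding proteins form a family whose genes resemble each other, and fragments may have been assigned to the wrong one. Over the whole list the mean per tumor was 4.29, 4.85, 4.25 and 4.47 against 3.37, 3.69, 3.47 and 3.34. The Rag2-/- tumors spanned 3.15 to 7.43 with a median of 3.89, between the groups. The highest value was that of 1 tumor, the next was 4.52, and the other 9 were at or below 4.19, under all T cell-rich tumors. Ifng, the ligand gene, named here after its values were seen, was below the filter, at −0.59, −0.70, −1.08 and −1.23 against −1.64, −0.82, −3.32 and −3.32, and its groups overlapped.

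Promoter sequence was examined for the interferon gamma, type I interferon and MHC class I lists, whose tested members were all higher in the mean. Windows came from RefSeq on GRCm38.p6 (a gene with several starts counts if any window matched), which held a promoter for 11 of the 16 interferon gamma members and 6 of the 9 without overlap. In the 250 bases before the start site, both strands were searched for GAAANNGAAA, the core of the interferon-stimulated response element, and for TTCNNNGAA, the core of the gamma-activated site. The first was found in 2.98% and the second in 7.02% of the 32851 promoters of the reference. These shares count single windows and not genes, and no share was taken for either core together. The interferon lists were made of genes of those responses, so cores could be present in them whatever the division of the tumors. Of the 11 interferon gamma members with a promoter, 7 held the first, 4 the second and 9 at least one of them, and of the 6 without overlap 5 held one. Of the type I interferon list 6 of 11 promoters held at least one core, and of the MHC class I list 2 of 10, with 0 of 5 among its members without overlap. The 100 bases just before the start are printed for these 5 interferon gamma genes, 5′ to 3′ on the gene's own strand, with matches of either core in capitals, to show where the cores lie. They are Gbp5 (chr3:142496834-142496933, plus strand), Gbp3 (chr3:142559944-142560043, plus), Gbp2 (chr3:142620563-142620662, plus), Irgm1 (chr11:48871421-48871520, minus) and Irf1 (chr11:53769914-53770013, plus).
Gbp5: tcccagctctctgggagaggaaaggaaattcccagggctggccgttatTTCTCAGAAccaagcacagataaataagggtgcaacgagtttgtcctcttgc
Gbp3: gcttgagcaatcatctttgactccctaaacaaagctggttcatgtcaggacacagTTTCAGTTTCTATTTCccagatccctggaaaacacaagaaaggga
Gbp2: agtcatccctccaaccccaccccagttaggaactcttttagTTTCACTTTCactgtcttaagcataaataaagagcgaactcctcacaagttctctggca
Irgm1: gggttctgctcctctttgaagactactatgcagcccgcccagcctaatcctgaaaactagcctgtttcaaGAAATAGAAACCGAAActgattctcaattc
Irf1: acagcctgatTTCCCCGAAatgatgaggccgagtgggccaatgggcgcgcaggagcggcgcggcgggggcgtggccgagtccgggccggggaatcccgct
In these 100 bases Gbp3 and Irgm1 each held 2 overlapping copies of the first core, Gbp2 held 1, and Gbp5 and Irf1 held 1 copy of the second. Cxcl9 had no match of either core in its window. A match is a string of letters and not a measured binding site.

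Genes of MHC class I presentation, which load and display peptides to CD8 T cells, were higher in the mean for all 12 members, with a median difference of 0.73. Of these, 6 did not overlap, against 1.86% of all genes tested, and 10 had an unadjusted limma p under 0.05, against 2.79%, and none passed the adjusted test. Psmb9, an immunoproteasome subunit, was at 5.65, 5.50, 5.20 and 5.09 in the T cell-rich and at 4.69, 4.49, 4.50 and 4.17 in the T cell-poor tumors. Tap1, a chain of the peptide transporter, was at 6.13, 6.01, 5.18 and 5.45 and at 4.76, 5.05, 4.14 and 4.58. Nlrc5, the transactivator of class I genes, was at 3.68, 3.57, 3.07 and 3.18 and at 2.40, 2.15, 0.81 and 2.52. The T cell-rich tumors were above the T cell-poor ones throughout, with differences of 0.90 ± 0.22, 1.06 ± 0.30 and 1.40 ± 0.40 (SE, limma adjusted p = 1 for each). Tapbp, which bridges transporter and class I molecule, was at 6.45 to 7.42 against 6.04 to 6.28. The chains themselves overlapped. B2m was at 10.57 to 11.43 against 9.63 to 10.74, H2-K1 at 9.44 to 10.38 against 8.66 to 9.48, and H2-D1 at 9.24 to 10.14 against 8.69 to 9.48, and H2-K1 and H2-D1 are near-identical in sequence to other class I genes. S58 and S55 had the highest list means of the 8 tumors, 7.06 and 7.08, and S56 the lowest, 5.63. The list mean averaged 6.81 in the T cell-rich and 6.02 in the T cell-poor tumors. The Rag2-/- tumors, without T cells, spanned 5.97 to 7.77 with a median of 6.75.

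**Figure D3:**
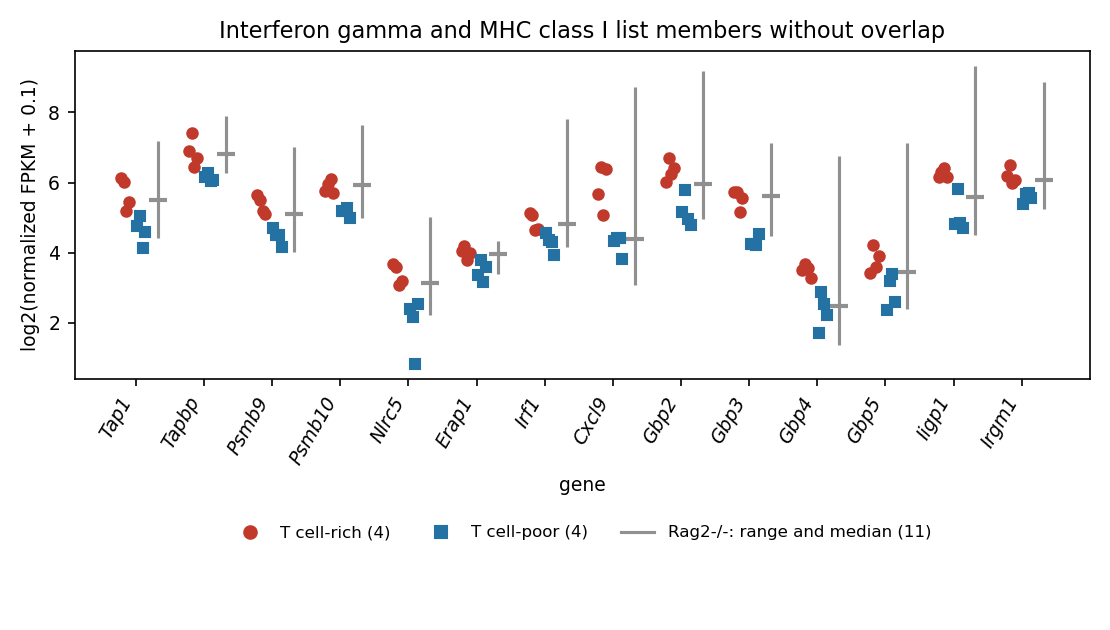
Log2 values of 14 members of the interferon gamma and MHC class I lists whose groups did not overlap, with each T cell-rich tumor as a red circle, each T cell-poor tumor as a blue square and the range and median of 11 Rag2-/- tumors in gray. Red lies above blue for each gene, by 0.64 for Gbp3 and as little as 0.01 for Gbp5, and the gray range spans both groups for Cxcl9.

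MHC class II genes, expressed by dendritic cells, macrophages and B cells and inducible by interferon gamma, had a larger median difference, 1.60 over 7 tested of 9 members, all with an unadjusted limma p under 0.05 (2.79% of all genes tested) and none with an adjusted one. Only Ciita, their transactivator, did not overlap (1.86% of all genes tested), at 2.11, 2.13, 2.26 and 2.34 against 0.63, 1.96, −0.39 and 0.26. Cd74, the invariant chain, was at 10.04, 10.81, 10.46 and 10.13 against 8.80, 10.39, 8.10 and 7.92. H2-Ab1 was at 9.10, 9.71, 9.53 and 8.82 against 7.79, 9.25, 6.87 and 6.54, and H2-Aa followed it. S60 reached the T cell-rich range for Cd74, H2-Ab1 and H2-Aa and lay just below it for Ciita, whereas S54, S56 and S53 lay below it for all 4. The type I interferon list was higher in the mean for all 15 members, with a median difference of 0.90. Of these, 8 had an unadjusted limma p under 0.05, against 2.79% of all genes tested, and 0 were without overlap, against 1.86%. Irf7 was at 7.85, 7.87, 6.20 and 7.35 against 6.37, 6.04, 5.97 and 6.34, Isg15 at 5.93 to 8.07 against 5.41 to 6.66, and Ifit3 at 5.33 to 7.44 against 5.17 to 5.76. S59 was low within the T cell-rich group for each, and its list mean of 3.68 lay within the T cell-poor range of 3.30 to 4.30. The type I list mean averaged 4.79 in the T cell-rich and 3.86 in the T cell-poor tumors, and the Rag2-/- median was higher, at 5.41. For MHC class II the averages were 5.57 and 4.17, and the Rag2-/- median lay between them, at 4.79.

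Among genes of lymphocytes other than T cells, some of the plasma cell list were higher in the T cell-rich tumors. Of 10 tested members of 16, 7 were higher and 3 lower in the mean, 4 had an unadjusted limma p under 0.05 (2.79% of all genes tested), and 2 did not overlap (1.86%). Igkc, the kappa light chain constant region, was at 8.64, 8.69, 6.24 and 8.29 in the T cell-rich and at 6.19, 6.13, 3.88 and 5.61 in the T cell-poor tumors, a 5.69-fold difference of means. Jchain, which joins IgA and IgM subunits, was at 6.46, 5.75, 4.13 and 5.43 and at 4.01, 3.56, 1.19 and 3.21. Neither gene overlapped, although the gaps were only 0.04 and 0.12, with S59 lowest among the T cell-rich and S54 highest among the T cell-poor tumors. Igha, the IgA heavy chain, overlapped slightly, at 5.13 to 8.24 against 3.62 to 5.31, and the 3 lower members, Xbp1, a secretory transcription factor that many cells express, and the heavy chain genes Ighm and Ighg2c, differed by −0.04, −0.09 and −0.90. The median difference of the list was 0.55, within the middle 90% of all genes, and was 0.30 without S55 and 0.84 without S52. For members with a mean log2 above 2, which are fewer, it was 1.48, beyond the upper limit of that range, 0.81. Igkc was at the floor in 9 of the 11 Rag2-/- tumors. Immunoglobulin genes share sequence, so single members are uncertain. B cell genes were near the floor, only 2 of 12 members were tested, and the defining gene Ms4a1 did not exceed −0.80. Cd22 differed by 1.08 and Cd79b by 0.98, both with overlap, and Cd79a was below the filter.

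NK cell genes were higher in the mean for 4 of 5 tested of 11 members. The list mean averaged 0.34 in the T cell-rich and −0.76 in the T cell-poor tumors, and the Rag2-/- tumors, without T cells, had a median of 0.84. Klrd1, which CD8 T cells also express, was at 2.58, 2.23, 2.08 and 2.22 and at 1.12, −0.27, −3.32 and 0.86. Klrb1c, the NK1.1 receptor, was at 0.55, 1.58, 0.59 and 1.22 and at 0.10, −0.56, −1.62 and 0.05. Both were without overlap, as 2 of the 5 tested members and 1.86% of all genes tested were. Their T cell-poor means were −0.40 and −0.51, so both passed the filter only through the T cell-rich tumors, which favors this count. Klrk1, or NKG2D, overlapped at 2.77 to 3.77 against 0.82 to 3.22. Klra4, a member of a gene family of like sequence, went from −0.64 to 2.52 and from −2.09 to 3.15 without relation to the groups. Of the lymphoid tissue and homing list, 6 of 14 members were tested, all higher in the mean. Ltb, lymphotoxin beta, did not overlap, at 2.80, 3.10, 2.88 and 2.15 against 1.54, 1.80, −3.32 and −0.83. Its T cell-poor mean was −0.20, so it too passed the filter only through the T cell-rich tumors. The list's median difference over tested members, 1.11, was 0.59 without S53 and 0.71 without S55. Over all 14 members it was 0.67. Cxcl12, Ccl21a and Ccr7, its most abundant members, differed by 0.05, 1.36 and 1.22 with overlap.

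Macrophage and mast cell markers were higher in the mean in the T cell-rich tumors, while neutrophil markers were not uniformly so, and the part of these cells in the interferon and MHC results was not tested. Ptprc, which encodes the pan-leukocyte protein CD45 and was chosen after its values were seen, was at 5.23, 5.72, 4.84 and 5.25 in the T cell-rich and at 4.39, 4.65, 3.21 and 4.76 in the T cell-poor tumors, without overlap. All 16 macrophage and monocyte genes were higher in the mean, with a median difference of 0.66, which was 0.34 without S56. Of the 16, 4 did not overlap (1.86% of all genes tested) and 3, C1qa, C1qc and Ly6c2, had an unadjusted limma p under 0.05 (2.79%). The per-tumor mean of the list was 5.48 to 5.89 in the T cell-rich tumors, 5.44, 5.15 and 5.45 in S54, S60 and S53, and 3.95 in S56. Ly6c2, a marker of inflammatory monocytes, was at 7.34, 7.85, 6.08 and 6.56 and at 4.46 to 5.68, lowest in S56, a difference of 1.80 ± 0.44 (SE, limma adjusted p = 1). C1qa and C1qc, complement chains of macrophages, were at 8.66 to 9.15 against 7.45 to 8.63 and at 7.97 to 8.21 against 6.63 to 7.71, without overlap. C1qb overlapped, at 8.46 to 9.08 against 7.49 to 8.55. Adgre1, which encodes F4/80, did not overlap, at 5.85 to 6.19 against 3.96 to 5.62, and S56 lay far below the rest.

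Mast cell genes were higher in the mean for all 7 tested of 8, with a median difference of 1.06. Cma1, mast cell chymase, was at 4.97, 5.30, 4.72 and 5.67 and at 3.60, 4.66, 3.12 and 4.08 without overlap, and Tpsb2 and Mcpt4, a tryptase and another chymase, overlapped, Tpsb2 through S60 and S53 and Mcpt4 through S60. Dendritic cell genes were higher in the mean for all 6 tested of 12, with a median difference of 0.42 and no member at an unadjusted p under 0.05, a count near the background of 2.79% higher and 0.382% lower. Fscn1, which tumor cells also express, differed by 0.25, Ccl22 by 0.87 and Cd209a by 0.33. The neutrophil list split, with 4 of 8 tested members higher and 4 lower in the mean, and its median difference of 0.42 was −0.15 without S53 and 0.78 without S54. The dendritic cell median was 0.74 without S60. Csf3r, the G-CSF receptor, did not overlap, at 2.72, 3.59, 3.67 and 2.74 against 2.15, 2.53, 1.73 and 2.01. S100a9 and S100a8 differed by −0.23 and −0.01, and Mmp9 by 1.62, all with overlap.

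Red blood cell genes went the other way. All 5 tested of 6 members were lower in the mean in the T cell-rich tumors, with a median difference of −1.10, and 4 had an unadjusted limma p under 0.05, where 0.382% of all genes tested did so in this direction. None passed the adjusted test. Hba-a1, an alpha-globin gene, was at 6.37, 7.43, 7.89 and 7.97 in the T cell-rich and at 8.25, 8.69, 8.81 and 8.62 in the T cell-poor tumors without overlap. Hba-a2 was at 6.79, 8.39, 8.41 and 8.70 and at 8.68, 9.11, 9.52 and 9.25, and Hbb-bs, a beta-globin gene, at 8.14, 8.64, 8.73 and 8.76 and at 9.65, 8.68, 9.65 and 9.91. Hba-a1 and Hba-a2 encode near-identical RNA, so they count as little more than 1 observation. The mean of the list was 3.70 in S58, 4.54 in S55, 5.10 in S59, 5.13 in S52, 5.62 in S54, 5.74 in S60, 5.78 in S56 and 5.83 in S53. This is the exact reverse of the order of the T cell mean.

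The order of all 8 tumors was used in place of the cut in the middle by relating the T cell mean to the mean of each of 23 lists outside the T cell lists. The 8 tumors lie on both sides of the gap of 1.02, and 4 tumors on each side are too few for a relation within them. After adjustment over the 23 lists, 6 passed 0.05 for Pearson's r (exact permutation over all pairings, n = 8), each with an adjusted p of 0.0475, and 2 passed for Spearman's rho. The interferon gamma list had r = 0.90 (exact p = 0.00935) and rho = 0.81 (exact p = 0.0218, adjusted p = 0.125), and r = 0.92 over 6 tumors after S53 and S58 were left out, whose T cell means lie farthest from the median. MHC class I presentation had r = 0.87 (exact p = 0.00486) and rho = 0.93 (exact p = 0.00223, adjusted p = 0.0257), and r = 0.88 over those 6 tumors. The red blood cell list had r = −0.85 (exact p = 0.0036) and rho = −1.0 (exact p = 4.96e-05, the smallest that 8 tumors can give, adjusted p = 0.00114), and r = −0.95 over those 6 tumors. Plasma cell and homing genes had r = 0.84 and 0.82 (exact permutation p = 0.011 and 0.00975), and r = 0.76 and 0.86 over the 6 tumors. With the median of the list members in place of their mean, r was 0.52 and 0.23 and both calls were lost, and the red blood cell call was lost at r = −0.75. The skin epithelium list also passed, with r = 0.77 (exact permutation p = 0.0124), although only Trp63 of its 8 members was above the filter and no list mean exceeded −1.40.

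Leaving out single tumors ended several of these calls. Without any 1 of the 8 the interferon gamma list kept r at 0.89 to 0.93 with an adjusted p of 0.0513 to 0.126 (exact permutation). MHC class I kept 0.84 to 0.90 and missed the threshold without S58, S55, S52, S54, S60 or S56, with an adjusted p of up to 0.126 (exact permutation). The red blood cell list kept −0.93 to −0.83 and missed it without S54, S60 or S56, with an adjusted p of up to 0.108 (exact permutation). The plasma cell and homing lists kept 0.79 to 0.94 and 0.73 to 0.91, and missed it without 7 of the 8 tumors each, the exceptions being S59 and S58. The skin epithelium list missed it without any 1 of the 8, with an adjusted p of 0.0513 to 0.131 (exact permutation). Macrophage and monocyte genes had r = 0.53 (adjusted exact permutation p = 0.246), and r = 0.74 without S53, where the adjusted p was 0.0251 (exact permutation). In the 11 Rag2-/- tumors, where the T cell mean spanned only −3.32 to −2.24 and rests on few fragments, r was −0.33 for the interferon gamma list, 0.06 for MHC class I, 0.12 for red blood cell, 0.55 for plasma cell and 0.77 for macrophage genes, given as a description without a test.

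**Figure D4:**
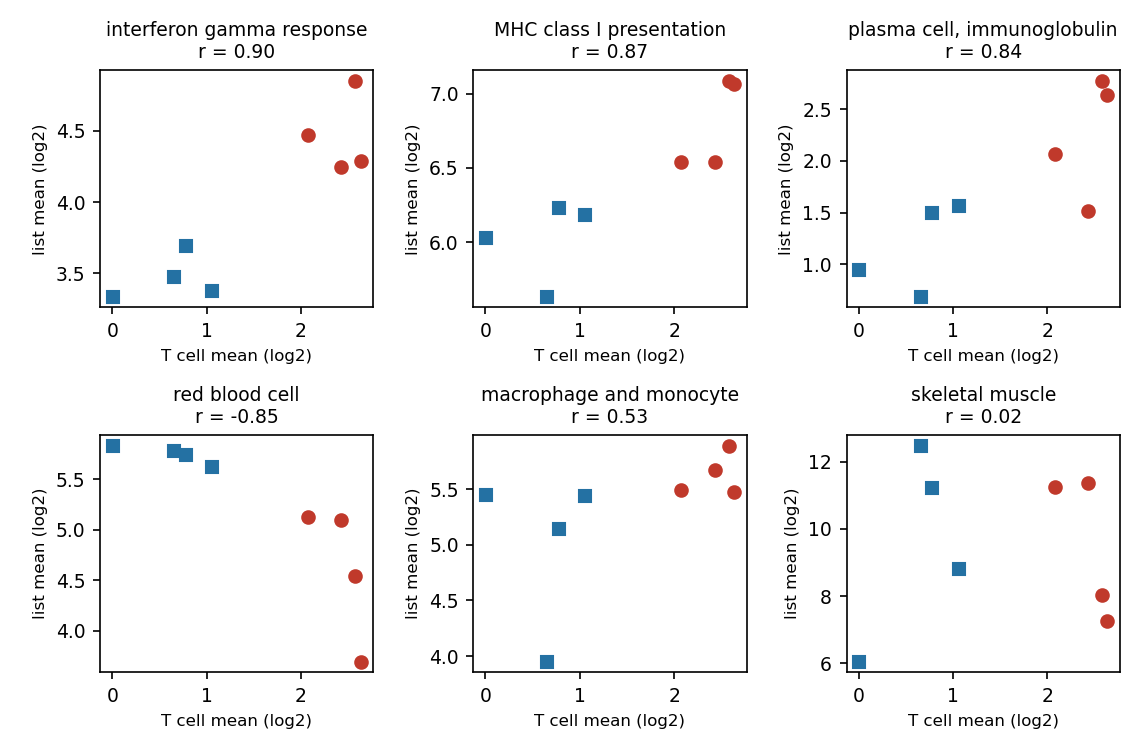
Mean log2 value of 6 gene lists (vertical axes) against the T cell mean (horizontal axes) in the 8 Rag2+/- tumors, red circles for T cell-rich and blue squares for T cell-poor, with Pearson's r above each panel. The interferon gamma, MHC class I and plasma cell lists increase with the T cell mean (r = 0.90, 0.87 and 0.84), the red blood cell list decreases (r = −0.85), and skeletal muscle shows no order (r = 0.02).

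Skeletal muscle RNA varied widely between tumors and did not separate the groups. The list mean was 7.26, 8.03, 11.37 and 11.24 in the T cell-rich and 8.80, 11.22, 12.47 and 6.05 in the T cell-poor tumors, with both the highest and the lowest tumor in the T cell-poor group. Acta1, skeletal muscle actin, Tnnt3, fast troponin T, and Ckm, muscle creatine kinase, differed by −0.34, −0.35 and −0.26, with SDs of 2.26 to 3.16 within the groups. Fibroblast and mesenchymal genes had a median difference of 0.31 over 14 members, and Col3a1, Vim and Col1a2 differed by 0.51, −0.03 and 0.43. Endothelial genes differed by a median of −0.06 over 10, with Pecam1 at 0.10, Cdh5 at −0.26 and Eng at 0.30. The adipocyte list had a median of 0.52 over 7 and list means from −1.35 to 4.49, and Fabp4, Cfd and Plin4 differed by 0.15, 0.90 and −0.30. None of the members of these 4 lists had an unadjusted limma p under 0.05, a count near the background of 2.79% higher and 0.382% lower. Leaving out 1 tumor turned the sign of all 4 medians, which ranged from −1.47 (without S53) to 0.61 (without S56) for muscle, −0.04 (S55) to 0.76 (S59) for fibroblast, −0.17 (S58) to 0.16 (S56) for endothelial and −0.56 (S53) to 1.78 (S60) for adipocyte genes.

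For 4 lists of tumor cell state the median differences were small and their sign depended on single tumors. Cell cycle genes had a median difference of 0.22 over 12 members, p53 target genes 0.18 over 12, the TGF-beta axis 0.28 over 11 and Wnt and beta-catenin targets −0.13 over 7 tested of 10. Without 1 tumor the medians ranged from −0.22 (without S60) to 0.84 (without S53) for the cell cycle, −0.01 (S53) to 0.35 (S56) for p53 targets, −0.16 (S56) to 0.53 (S53) for TGF-beta and −0.44 (S60) to 0.14 (S53 or S59) for Wnt. Of the tested members of these 4 lists only 1 had an unadjusted limma p under 0.05, a count near the background of 2.79% higher and 0.382% lower, and none was without overlap. It was Trp53inp1, a p53 target that differed by 0.80, named after its values were seen. Pcna, Cdk1 and Top2a differed by 0.09, 0.37 and 0.60, Ccng1, Phlda3 and Cdkn1a by −0.11, 0.03 and 0.23, Tgfbi and Ccn2 by 1.18 and 0.02, and Ctnnb1, Dkk2 and Dkk3 by 0.00, −0.05 and −0.13. Ctnnb1, which encodes beta-catenin, was at 6.74 to 7.39 and at 6.65 to 7.44. Hypoxia and glycolysis genes were lower in the mean for all 11 members, with a median of −0.47 that stayed at −0.66 to −0.32 without 1 tumor, and 0 of 11 had an unadjusted limma p under 0.05, where 0.382% of all genes tested did so in this direction. Ldha, Pgk1 and Bnip3 differed by −0.47, −0.60 and −0.70 with overlap.

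Outside the lists, the genes with the smallest p among those higher in the T cell-rich tumors were Ms4a4b, Il18bp, Ptprcap, AW112010, Fgl2, Ctsw, Gbp7 and P2ry14. Ms4a4b, a membrane protein of T cells, was at 4.08, 4.48, 4.04 and 3.99 in the T cell-rich and at 2.35, 2.61, 1.75 and 2.30 in the T cell-poor tumors, a difference of 1.90 ± 0.24 (SE, limma adjusted p = 0.272). Il18bp, the interferon-induced inhibitor of interleukin 18, was at 3.84, 4.59, 4.39 and 4.46 and at 3.14, 3.22, 2.82 and 2.58, a difference of 1.38 ± 0.25 (SE, limma adjusted p = 0.793). None of the 8 passed the adjusted test. For all 8 the groups did not overlap, which the choice by smallest p favors, against 1.86% of all genes tested. Ptprcap, a partner of CD45, differed by 2.01, AW112010 by 1.70, Ctsw, a cathepsin of cytotoxic lymphocytes, by 1.65, P2ry14, a nucleotide-sugar receptor, by 1.34, Fgl2, a secreted fibrinogen-like protein, by 1.08 and Gbp7 by 0.99. With the 11 Rag2-/- tumors in the fit as a further group, Ms4a4b alone passed, with a limma adjusted p of 0.0306.

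In the other direction, the smallest p belonged to Eno1b, an enolase gene close in sequence to Eno1. It was at 0.39, 0.45, −0.24 and −2.03 in the T cell-rich and at 6.90, 5.23, 5.24 and 7.25 in the T cell-poor tumors, a difference of −6.51 ± 0.69 (SE, limma adjusted p = 0.122). The values formed a low and a high level with nothing between them over 4.77. Among the Rag2-/- tumors 3 were at 5.53 to 6.37 and 8 at −1.04 to 1.53, so both levels also occurred in mice without T cells. Eno1, chosen after its values were seen, was at 7.75 to 8.83 and at 7.22 to 8.66, and fragments of the pair may have been assigned to either gene, so the value of Eno1b is uncertain. With the mean of the skeletal muscle list as a covariate, Eno1b was the 1 gene called (limma adjusted p = 5.22e-04). The other 7 were Mical2, Ankrd37, Mettl27, Zfp932, Epn2, Mapk13 and Patz1, lower in the mean of the T cell-rich tumors by 0.57 to 1.46 (limma adjusted p = 1 for each). Their groups did not overlap, which the choice by smallest p favors, against 0.476% of all genes tested in this direction. Mical2, an actin-oxidizing enzyme, was at 4.66, 4.92, 4.45 and 4.86 and at 5.60, 5.64, 5.36 and 5.30.

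**Figure D5:**
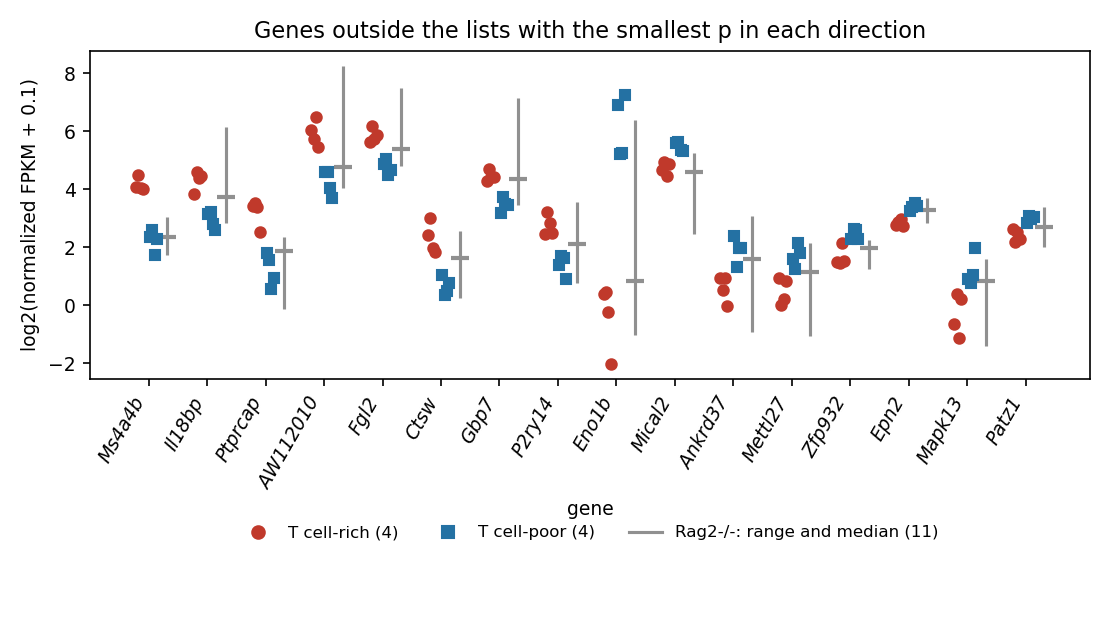
Log2 values of the 8 genes outside the lists with the smallest limma p in each direction, with each T cell-rich tumor as a red circle, each T cell-poor tumor as a blue square and the range and median of 11 Rag2-/- tumors in gray. Ms4a4b is at 3.99 to 4.48 against 1.75 to 2.61, and Eno1b shows the widest gap, 4.77.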

How the data were processed

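Each tumor gave 1 bulk RNA library. Per the paper's methods, the authors aligned reads to mouse genome B38 with the Omicsoft aligner and Ensembl R86 models, while the submitters' processing notes name Trimmomatic 0.36, STAR 5.5.4b, HTSeq and mm10. The deposited values are log2 of upper-quartile normalized FPKM plus 0.1, and are not counts. Of 48795 genes, 48349 had a symbol, and 0 columns were left unmatched. Genes with a mean above 0 over the 8 Rag2+/- tumors were fitted with limma 3.58.1 (R 4.3.3, intensity trend, Benjamini-Hochberg, two-sided), after tests on simulated data. Exact permutation tests ran in scipy 1.17.1 under Python 3.11.15, on tables read with pandas 2.3.3 and numpy 2.4.6. The labels do not say whether tumors share a litter or batch, so p-values measure the spread between these tumors. Depth was estimated from genes with 1 GENCODE vM21 transcript, for which 78.2% to 87.6% of low values were whole multiples of 1 fragment within 0.05. That is too few to recover reads, so no count test was run. The 4 ordering genes were left out of all counts of genes.

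The tumors and the 29 gene lists (336 genes) were chosen with earlier results of these data known. Named genes are the ordering genes, the called members and the 3 most abundant members of each list, up to 4 members per list whose groups did not overlap, with the largest differences, and, outside the lists, the 8 genes with the smallest p in each direction, without gene models, pseudogenes and receptor segments. Irf1, Gbp4, Gbp5, Ms4a1, Xist, Ddx3y, Foxp3, Il2ra, Ighm, Ighg2c, Trp53inp1, Ifng, Ptprc, Eno1, Rag2, Ngp, Camp, Ltf and Prg2 fall outside this rule and were named after their values were seen. A few genes that the rule covers count in the lists and are not reported here. Alternatives were other pseudocounts, filters, scalings, rankings, covariates and fits, and each tumor left out.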

Additional observations from a re-analysis of the deposited data

Results flagged for a closer look

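In groups of 4 tumors, a tumor is listed here when its gap to the nearest other tumor took more of the group's range than Dixon's 95% critical value for 4 samples allows. Of 322 groups examined, 29 (9.01%) met this, where chance gives about 1 in 20, and groups of related genes are not independent. No cause was tested.

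S56 was apart in 7 T cell-poor groups. It was lowest for Lat at −3.32, Cd6 at −1.43, Prf1 at −3.32, Tnfrsf4 at −1.92, Tnfrsf18 at 0.47, C1qc at 6.63 and Adgre1 at 3.96. Also in the T cell-poor group, S53 was lowest for Cxcl9 at 3.82 and Cdkn1a at 4.64 and highest for Gbp3 at 4.53, and S60 was highest for Cd209a at 1.42 and Iigp1 at 5.82.

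In the T cell-rich group, S55 was highest for Lcp2 at 4.25, Entpd1 at 5.65, Icos at 2.10, Adgre1 at 6.19 and Ms4a4b at 4.48, and lowest for the Y-linked Eif2s3y at −3.32, Ddx3y at −3.32 and Uty at −3.09, in the tumor of this group with the highest Xist level. S59 was lowest for the NK cell list mean at −0.15, Igkc at 6.24, Klrk1 at 2.77 and Dkk2 at 2.35, and highest for Zfp932 at 2.15. S52 was lowest for Cd8b1 at 1.60 and Ptprcap at 2.53, and S58 was highest for Cd79b at 1.72 and lowest for Hba-a2 at 6.79.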

How the results depend on the processing

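No gene was called except 1 with the Rag2-/- tumors in the fit (Ms4a4b) and 1 with the muscle list as a covariate (Eno1b), and leaving out any tumor gave 0. The 358 higher genes at unadjusted p under 0.05 became 586 with Xist as a covariate, 582 with the muscle list, 731 without a filter and 165 to 420 without 1 tumor, and the 49 lower genes became 218, 171, 78 and 29 to 89 in the same order, 105 with Rag2-/- tumors in the fit and 25 above a mean log2 of 2. Genes without overlap, 239 higher and 61 lower, became 569 and 273 with 3 against 3 tumors, 385 higher without a filter, and 259 to 465 and 95 to 203 without 1 tumor, since fewer tumors overlap less often. Of 545 alternative values of list medians, 537 moved by less than 1 SD between tumors. Some of these could not move. Rankings without Cd8a and by the T cell identity list gave the same 4 T cell-rich tumors. Fits without the intensity trend or with the Rag2-/- tumors leave each difference unchanged. The SD was also wide for some lists, 2.14 and 2.83 in the 2 groups for muscle, so that a change of sign counted as unmoved. With a pseudocount of 1 the cytotoxic, checkpoint and B cell medians were 1.21, 0.99 and 0.68. Above a mean of 2 the checkpoint median was 0.59 and the plasma cell median 1.48, with fewer members tested. Without 1 tumor the checkpoint median ranged from 1.02 to 2.01 and the homing median from 0.59 to 1.25.

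With list medians in place of means, r was 0.52 for plasma cell, 0.23 for homing, 0.47 for skin epithelium and −0.75 for red blood cell genes, none past the threshold. With a pseudocount of 1, r was 0.78 for B cell genes, now past it, and 0.62 for skin epithelium, no longer past it. Without 1 tumor, r ranged from 0.79 to 0.94 (plasma cell), 0.73 to 0.91 (homing), 0.44 to 0.74 (macrophage), 0.84 to 0.90 (MHC class I), 0.89 to 0.93 (interferon gamma), 0.74 to 0.88 (skin epithelium) and −0.93 to −0.83 (red blood cell). The cause of the other shifts was not tested. No paired analysis was possible because the 8 tumors come from 8 mice that the labels do not pair.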

Other observations

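A few granule protein genes, all chosen after their values were seen, had lower means in the T cell-rich tumors, while the tested neutrophil list as a whole split 4 to 4, with Csf3r and Mmp9 higher by 1.07 and 1.62 and S100a8 at −0.01. Ngp, a granule protein of immature neutrophils, was at −2.97, −3.32, −2.07 and −0.96 in S58, S55, S59 and S52 and at 3.61, 2.54, 4.26 and −1.07 in S54, S60, S56 and S53, so S53 was close to the T cell-rich tumor S52 (limma adjusted p = 1). Camp, the cathelicidin precursor of the same granules, was below the filter, at −3.32 to −2.01 and at 2.66, 0.79, 2.62 and −2.25, with the same tumor apart. Ltf, lactoferrin, was at −2.33 to −0.04 and at 1.49, 1.08, 3.02 and −1.03. Prg2, the major basic protein of eosinophils, was also below the filter, at −3.32 to −2.17 and at 0.53 in S60, 0.01 in S56, 0.26 in S53 and 1.0 in S54 without overlap, on at most 42 estimated fragments. In Rag2-/- tumors Prg2 was at the floor in 6 of 11.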
